A study of Mus musculus with 10 samples.

Results

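The microglia of APP/PS1 mice at 3 months of age were set against those of non-diseased mice of the same age. All cells in the authors' annotation of the microglia that came from the 3-month libraries were taken, 24429 of the 40547 microglia of the series, and their counts were summed per library. There were 4 libraries of 3-month-old mice, 1 each from WT mice, from Nlrp3 KO mice (NLRP3.KO in the labels), from APP/PS1 mice and from Nlrp3 KO APP/PS1 mice, which were compared as 2 pairs: APP/PS1 against WT, and Nlrp3 KO APP/PS1 against Nlrp3 KO. The APP/PS1 transgenes are active in brain neurons and encode an amyloid precursor protein with the Swedish mutation, made in excess, and a mutated human presenilin. In the Nlrp3 KO mice Nlrp3 is deleted in the whole body, so both libraries of the second pair carry this deletion, the non-diseased control included. All mice were on a C57BL/6 background. Each library came from CD45+ cells sorted from the pooled brains of 3 mice (2 males and 1 female), so a group is 1 library, and a difference between genotypes cannot be told apart from a difference between pools. The question was which microglial genes and states differ at an age before the one (9 months) at which the disease-associated state is common in these mice.

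Microglia are the resident macrophages of the brain parenchyma, and in the healthy brain they carry a homeostatic program with the receptors P2ry12 and Cx3cr1 and the membrane protein Tmem119. Near amyloid they can take on a disease-associated state (DAM), in which lipid-handling and lysosomal genes such as Apoe, Lpl and Cst7 rise, and which depends in part on the lipid-sensing receptor Trem2. A separate response is the one to type I interferon, a cytokine that acts on genes whose promoters often hold the interferon-stimulated response element. Microglia also release CC chemokines such as Ccl3 and Ccl4 within a short time of stimulation, and both genes are known to be induced while brain tissue is dissociated. Actinomycin D, which blocks transcription, was present during the dissociation here.

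The 3-month microglia numbered 7190 in WT, 5948 in Nlrp3 KO, 3083 in APP/PS1 and 8208 in the Nlrp3 KO APP/PS1 library, and they held between 19140253 and 35107144 counted UMIs per library (unique molecular identifiers, each of which stands for 1 captured RNA molecule). The libraries differed in UMIs per cell. The median microglia held 4260 UMIs in WT, 4499 in Nlrp3 KO, 5985 in APP/PS1 and 3978 in the Nlrp3 KO APP/PS1 library, so the APP/PS1 library was the deeper one of its pair and the Nlrp3 KO APP/PS1 library the shallower one. Between 7 and 16 cell barcodes were shared by any 2 of the libraries. Defining microglial markers were abundant in every library. P2ry12 stood at 3596 CPM (UMIs of the gene relative to all UMIs of the cells summed) in WT, 3449.8 in Nlrp3 KO, 3438 in APP/PS1 and 3563 in the Nlrp3 KO APP/PS1 library, an order kept wherever 4 values are given, and the border macrophage marker Mrc1 lay between 6.32 and 6.78 CPM. Nlrp3 was at 44.1 CPM in WT and 53.7 CPM in APP/PS1 mice, and neither Nlrp3 KO library held an Nlrp3 UMI in microglia.

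The summed counts were tested with edgeR's quasi-likelihood test with the pair as a block. Calls required a Benjamini-Hochberg adjusted p below 0.05 together with a log2 fold change beyond 1 in either direction. Of 12310 genes tested, 11 were called (0.0894%), and all 11 were higher in APP/PS1 mice. These were the chemokines Ccl3 and Ccl4, the cytokine Il1b, the DAM genes Cst7, Ch25h and Baiap2l2, the neutrophil genes S100a8, S100a9 and Camp, the immunoglobulin kappa constant gene Igkc and the long noncoding RNA Gm42047 (chr8:121833247-121841178, GRCm38). By the adjusted p alone, 35 genes were higher (0.284%) and 3 were lower (0.0244%), and 456 genes had an unadjusted p under 0.05, of which 325 were higher. The fit left 1 residual degree of freedom. When the spread was estimated from all 10 libraries of the series or from the 8 libraries of 3 and 9 months, no gene was called, with 288 and 251 genes at an unadjusted p under 0.05. No gene passed the adjusted p alone in either of these fits, the members of the lists below included. With DESeq2 4 genes were called (15 past the adjusted p alone), namely Ccl4, Igkc, S100a9 and Ch25h. Without the pair as a block 1 gene was called (3 past it), which was Ccl4. Cst7, Ccl3 and Il1b were called in neither fit. Because the libraries differed in UMIs per cell, every cell was also thinned to 1500 UMIs. Then 6 of 11417 genes were called (0.0526%), namely Ccl3, Ccl4, Cst7, Igkc, S100a8 and S100a9. The calls of Il1b, Ch25h, Baiap2l2 and Gm42047 ended under thinning, and Camp could not be tested. The median microglia of each library held at least 3978 UMIs, so thinning to 1500 also removed most of its counts. The part of that loss in the ended calls was not tested. By the adjusted p alone, 0.114% of genes were higher after thinning.

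**Figure D1:**
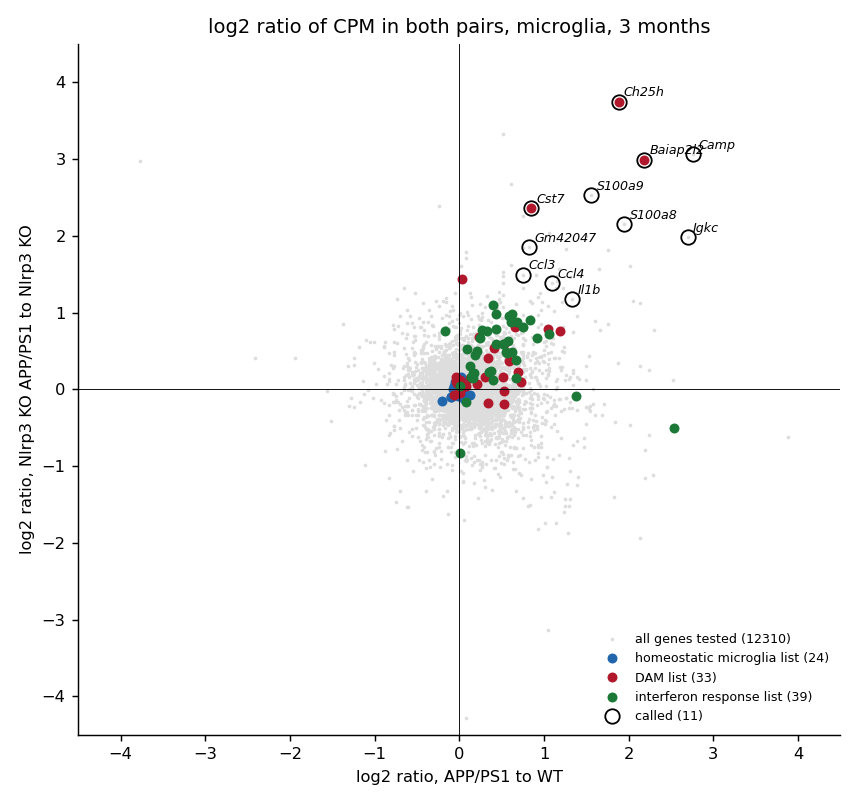
Log2 ratio of CPM (prior count of 2) in the Nlrp3 KO pair (vertical axis) against that in the Nlrp3 WT pair (horizontal axis), 1 point per gene for the 12310 genes tested at 3 months, with the homeostatic, DAM and interferon lists colored and the 11 called genes circled and named. All called genes lie in the upper right, where both pairs were higher in APP/PS1 mice, and the 24 homeostatic genes lie close to the origin.

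The chemokine genes Ccl4 and Ccl3, which encode chemoattractants of leukocytes, were both called and lie next to each other on chromosome 11 (Ccl3 at chr11:83647844-83649355, minus strand, and Ccl4 at chr11:83662584-83664683, plus strand, GRCm38). Ccl4 was counted at 79.6, 68.4, 169 and 179 CPM. Both APP/PS1 libraries lay more than 2-fold above both non-diseased libraries, with a log2 fold change of 1.219 (SE 0.0769, edgeR adjusted p = 1.98e-07). With the spread of all 10 libraries the estimate for Ccl4 was 1.23, at an unadjusted edgeR p of 0.073. In that fit 10 of the 11 called genes, all but Ccl4, had an unadjusted p under 0.05. With the spread of 8 libraries the unadjusted p of Ccl4 was 0.000374. Ccl3 stood at 43.0, 37.7, 72.2 and 106 CPM, again without overlap between the groups (log2 fold change 1.11, SE 0.12, adjusted p = 8.02e-05). Il1b, the precursor of interleukin-1 beta that inflammasomes help to mature, was a far rarer transcript, at 3.401, 3.01, 8.62 and 6.89 CPM (log2 fold change 1.25, SE 0.16, adjusted p = 0.000564). After thinning to 1500 UMIs the value for Il1b was 0.81 (adjusted p = 0.975). In summed counts, more cells with a transcript and more transcript per cell cannot be told apart, so the cells that held it were counted too.

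Few microglia carried these transcripts. After every cell had been thinned to 1500 UMIs, Ccl4 was found in 1.59%, 2.05%, 2.76% and 2.86% of microglia. Without thinning these shares of cells were 3.12%, 4.40%, 6.84% and 5.36%. Also without thinning, the 1% of cells with most Ccl4 held 94.0%, 88.6%, 89.1% and 89.5% of its UMIs. B cells held no Ccl4 UMI in any of the 4 libraries (33 to 173 B cells), whereas T cells held 12 to 110 and natural killer cells, which express it, 107 to 1146. By the authors' states, 91.2%, 75.4%, 82.0% and 86.2% of the Ccl4 UMIs lay in IEG cells, the microglia with an immediate early gene signature, which the study describes as a known response to tissue dissociation. Within IEG cells Ccl4 reached 1646, 967, 2372 and 2245 CPM, so both APP/PS1 libraries were above both others there as well. Ccl3 in IEG cells was at 809, 393, 868 and 1125 CPM and Il1b at 34.4, 10.7, 112 and 59.4 CPM, in each case without overlap. In HM cells, the homeostatic microglia, the differences were smaller. States were clustered by expression, so cells high in these genes may be placed outside HM, and the levels there are not independent of the annotation. Over HM alone the log2 fold change of Ccl4 was 0.83 (adjusted p = 0.078), that of Ccl3 0.51, and that of Il1b turned to -0.19.

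Other chemokines and cytokines were examined as a list, which, like the other lists, was chosen with earlier results of these data known. Of its 24 members, 20 could be tested, and 5 of them were higher by the adjusted p (against 0.284% of all genes), none lower. Besides Ccl3, Ccl4 and Il1b these were Ccl6 (135, 161, 171 and 213 CPM, log2 fold change 0.35, adjusted p = 0.0271) and Csf1, which encodes a ligand of the receptor on which microglia depend for survival (log2 fold change 0.46, adjusted p = 0.0465). The median log2 fold change of the list was 0.39, against -0.0018 over all genes tested, and it fell to 0.063 over HM cells alone. Of the 16 members tested in HM, 1 was higher by the adjusted p (against 0.0827% of all genes) and called. That gene was Ccl5 (log2 fold change 1.43), which is also on the T and natural killer cell list, and none of the 5 genes above was called there. Cxcl13, a B cell attractant, had the highest estimate of the list, but at 0.897, 0.322, 4.28 and 0.171 CPM it was high in the APP/PS1 library alone (log2 fold change 1.55, adjusted p = 0.494). After thinning, 2 of the 17 members tested, Ccl3 and Ccl4, were higher by the adjusted p (against 0.114% of all genes). The abundant Tgfb1 stood at 452, 430.5, 425 and 447 CPM, and Tnf at 3.28, 4.72, 5.17 and 6.07 CPM (log2 fold change 0.48, adjusted p = 0.767). The inflammasome genes of the study other than Il1b did not pass the test. Among them Pycard, the adaptor protein, had a log2 fold change of -0.036 and Casp1, the protease, one of -0.036, Gsdmd, the pore-forming substrate, -0.011, and Il18 -0.053.

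**Figure D2:**
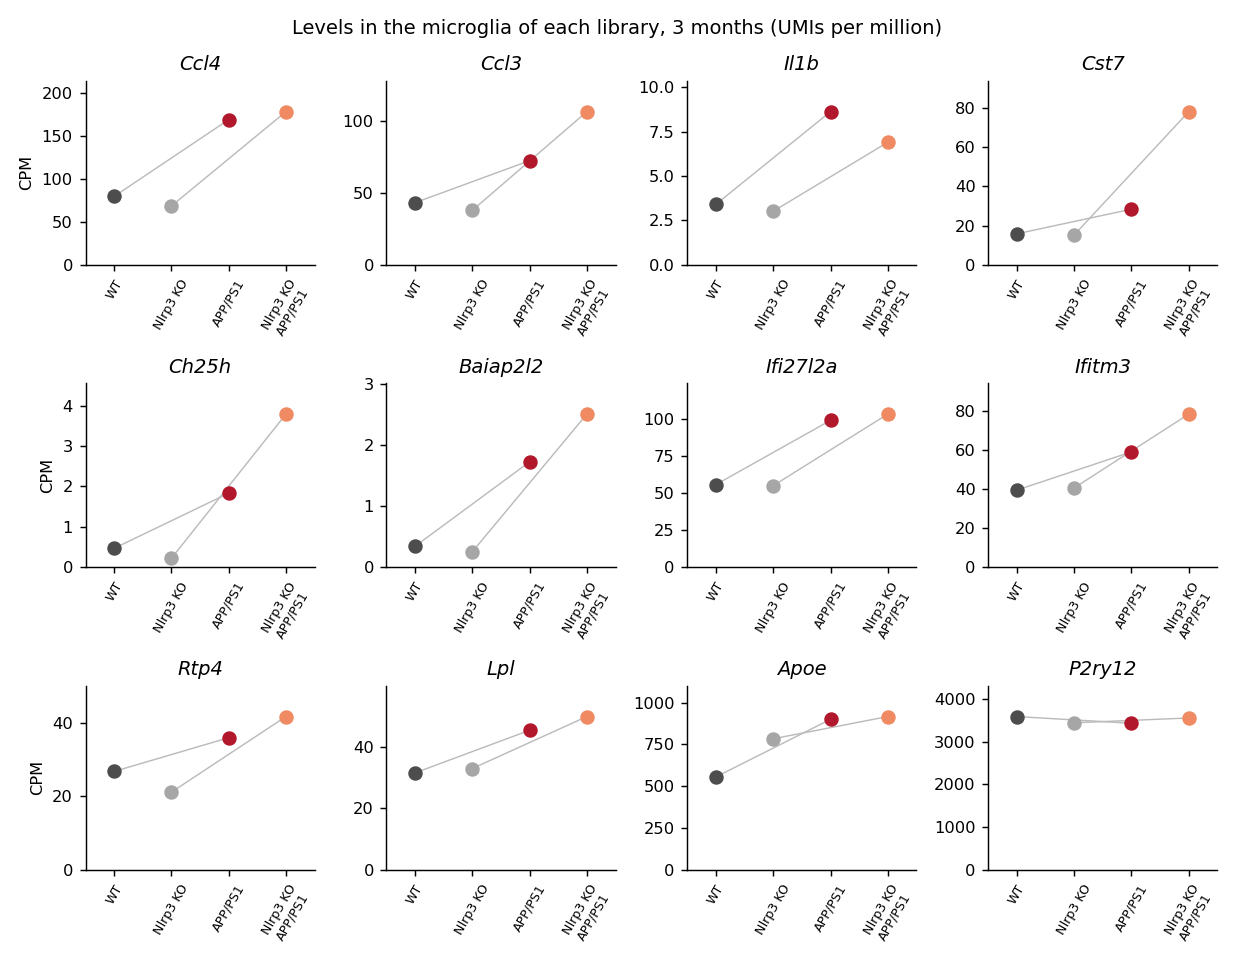
Level in CPM (linear axes from 0) of 12 genes in the summed microglia of each 3-month library, 1 point per library, with gray lines that join the libraries of a pair. Ccl4 and Ifi27l2a show both APP/PS1 libraries close together and above both non-diseased libraries, Cst7 is far higher in the Nlrp3 KO APP/PS1 library (78.3 CPM) than in the APP/PS1 library (28.4 CPM), and P2ry12 is nearly level.

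Of the 38 DAM genes 33 could be tested, and 9 were higher by the adjusted p (against 0.284% of all genes), 3 of them called (against 0.0894%), with none lower. The list was chosen with earlier results of these data known, and Ch25h and Baiap2l2 were named from such results. These counts are therefore not independent of that choice. After thinning to 1500 UMIs, 1 of the 32 that could be tested, Cst7, was higher by the adjusted p (against 0.114% of all genes). Cst7, which encodes the cathepsin inhibitor cystatin F (chr2:150570415-150578944), was counted at 15.8, 15.2, 28.4 and 78.3 CPM. The Nlrp3 KO APP/PS1 library held far more of it than the APP/PS1 library, although both were above the non-diseased libraries (log2 fold change 1.65, SE 0.20, adjusted p = 0.000526). Neither DESeq2 (unadjusted p = 0.0243) nor edgeR without the pair block (adjusted p = 0.524) called Cst7. With the Nlrp3 KO APP/PS1 library left out and no pair block, so that APP/PS1 was set against both non-diseased libraries, the estimate was 0.86. Ch25h encodes cholesterol 25-hydroxylase, which makes an oxysterol that acts on immune cells, and was at 0.464, 0.215, 1.83 and 3.79 CPM (log2 fold change 2.95, SE 0.39, adjusted p = 0.000777). Baiap2l2, a membrane-bending protein, was at 0.340, 0.251, 1.72 and 2.51 CPM (log2 fold change 2.78, SE 0.37, adjusted p = 0.000777). Between 5 and 41 cells of a library held Ch25h and between 7 and 55 held Baiap2l2, so these values rest on few cells. After thinning, the estimate was 2.40 for Ch25h (adjusted p = 0.675) and 2.32 for Baiap2l2 (adjusted p = 0.732), and without doublets the adjusted p of Ch25h was 0.153.

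Past the adjusted p but under the limit of fold were Lpl, the lipoprotein lipase (31.4, 32.9, 45.3 and 49.8 CPM, log2 fold change 0.55, adjusted p = 0.000576), and Ank, which encodes a pyrophosphate transporter (27.9, 29.0, 37.0 and 42.2 CPM, log2 fold change 0.46, adjusted p = 0.00594). Ccl6 and Csf1, given above, and Cybb also count under this list. Axl, a receptor tyrosine kinase that takes part in the uptake of apoptotic cells, followed at 6.43, 7.12, 10.1 and 12.6 CPM (log2 fold change 0.72, adjusted p = 0.0129). None of the 3 passed after thinning, where the log2 fold change was 0.17 for Lpl (adjusted p = 0.999), 0.32 for Ank (adjusted p = 0.934) and 0.35 for Axl (adjusted p = 0.999). Apoe, the lipid carrier most typical of DAM, was at 556, 784, 901 and 917 CPM. Its log2 fold change of 0.44 did not pass (adjusted p = 0.0611), and the Nlrp3 KO library lay closer to the APP/PS1 libraries than to WT. Gpnmb had 0, 0, 0 and 6 UMIs and Lgi2 had 2, 0, 3 and 41 UMIs, and neither was tested. The median log2 fold change over the DAM list was 0.21. Over HM cells alone it was 0.022, and none of the 29 members tested there passed the adjusted p (against 0.0827% of all genes higher). The states were clustered by expression, so cells rich in DAM transcripts may lie outside HM, and this fall is not independent of the annotation.

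Cells of the DAM state were few at this age. DAM were 31 of 7190 microglia in WT (0.431%), 37 of 5948 in Nlrp3 KO (0.622%), 24 of 3083 in APP/PS1 (0.778%) and 83 of 8208 in the Nlrp3 KO APP/PS1 library (1.01%), which are differences of 0.347 and 0.389 percentage points in the pairs. The cells called DAM did not hold the same transcripts in the libraries. Cst7 stood at 112 and 108 CPM in the DAM of WT and Nlrp3 KO mice, and at 848 and 2637 CPM in those of the corresponding APP/PS1 libraries. The DAM of the non-diseased mice held 18 and 22 Cst7 UMIs, for 95% exact Poisson intervals of 66.3 to 177 and 67.6 to 163 CPM, against 733 to 977 CPM in APP/PS1 mice (these cover counting error only). Lpl was at 37.3, 39.2, 611 and 784 CPM in DAM, and Ccl4 at 6.21, 4.90, 782 and 506 CPM. Ch25h had 0, 0, 25 and 51 UMIs in DAM, so no molecule was counted in those of the non-diseased libraries. In the DAM of the APP/PS1 libraries lay 35.5% and 58.2% of all microglial Cst7 UMIs.

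The MHC class II genes differed in the other direction. Summed over the MHC class II list, DAM held 4268 CPM in WT, 4744 CPM in Nlrp3 KO, 1217 CPM in APP/PS1 and 1366 CPM in the Nlrp3 KO APP/PS1 library. H2-Ab1, a class II chain, was at 839, 843, 141 and 179.5 CPM. Gbp2, a guanylate-binding protein induced by interferon-gamma, was at 124, 691, 8.79 and 1.65 CPM, whereas the interferon response list summed to 2386, 5597, 2456 and 2930.3 CPM, close in the Nlrp3 WT pair and lower with APP/PS1 in the Nlrp3 KO pair. The border macrophage list summed to 62.1, 44.1, 8.79 and 47.8 CPM in DAM (10, 9, 2 and 29 UMIs), against 8.28 to 9.15 CPM in HM, and its part in these differences was not tested. H2-Ab1 and Gbp2 were picked after their values were seen, the cells per library are few and a state has 1 library per group, so no test was made. When DAM were defined by 5 DAM genes after thinning rather than by cluster, they were 0.612%, 0.538%, 0.811% and 1.44% of microglia.

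Many of the interferon response genes were higher. Of 39 members, all tested, 12 were higher by the adjusted p (against 0.284% of all genes) and none lower, none reached the limit of fold, and 34 were higher in both pairs (28.9% of all genes were). In 29 of the 39, both APP/PS1 libraries lay above both others, which held for 19% of all genes. After thinning, 6 of the 38 tested were higher by the adjusted p (against 0.114% of all genes). With the spread of 10 or of 8 libraries no member passed it. In the main fit the median log2 fold change was 0.50. Ifi27l2a, a small interferon-induced protein, was at 55.7, 54.9, 99.0 and 103 CPM, with groups that did not overlap (log2 fold change 0.85, SE 0.0685, adjusted p = 4.14e-06). Ifitm3, which restricts virus entry, was at 39.5, 40.6, 59.1 and 78.5 CPM (log2 fold change 0.75, adjusted p = 0.000136). Lgals3bp, a secreted glycoprotein, was at 113, 117, 173 and 163 CPM and Slfn2, a schlafen protein, at 57.8, 56.9, 84.6 and 80.1 CPM (log2 fold changes 0.54 and 0.50). Sp100, a nuclear body protein, Rtp4, and Ifit2 and Ifit3, which bind viral RNA, had log2 fold changes of 0.58, 0.69, 0.80 and 0.52. Bst2, the most abundant member, was at 215, 206, 243 and 280.4 CPM and did not pass (adjusted p = 0.204).

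The promoters of this list are shown because the response element is a shared feature that the expression values did not use. The core of the element, GAAANNGAAA on either strand, was sought from 250 bases before to 50 bases after each start in RefSeq (GRCm38.p6). Of the 31 members with a promoter in the table, 19 (61.3%) held it, against 369 of the 9343 tested genes with a promoter (3.95%). Since the list was assembled from known interferon-stimulated genes, this describes the list and not the APP/PS1 effect. Among the genes past the adjusted p and higher, 4 of 25 with a promoter held the core (16%), namely Ifit3, Slfn5, Ifitm3 and Cybb. The first 3 are members of the interferon list, so the 16% mostly counts that list. Of the list members past the adjusted p, 8 had a promoter and 3 of these held the core (37.5%, against 61.3% of the list). Cybb, a subunit of the phagocyte NADPH oxidase, is on the DAM list and not on this one (4.05, 4.33, 9.25 and 7.38 CPM, log2 fold change 0.96, adjusted p = 0.00595). Windows of 3 of the 4 promoters follow, each read 5′ to 3′ along the strand of the gene, with matches to the core in capitals. Ifit3 (chr19:34583328-34583427, plus strand) and Cybb (chrX:9469438-9469537, minus strand) each hold a pair of matches in the window shown, and Slfn5 (chr11:82951902-82952001, plus strand) holds 1.
Ifit3: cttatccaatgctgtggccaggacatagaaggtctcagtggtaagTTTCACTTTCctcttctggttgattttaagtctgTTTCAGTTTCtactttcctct
Slfn5: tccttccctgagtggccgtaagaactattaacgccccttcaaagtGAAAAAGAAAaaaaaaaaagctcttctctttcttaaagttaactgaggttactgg
Cybb: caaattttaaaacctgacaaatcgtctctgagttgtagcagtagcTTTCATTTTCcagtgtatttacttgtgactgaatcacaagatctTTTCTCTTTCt

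Levels of interferon genes were also compared within HM, the largest state. IRM, or interferon-response microglia, were 3.80%, 3.61%, 6.58% and 7.53% of microglia, a mean difference of 3.35 percentage points (SD 0.797 over 2 pairs, exact sign-flip permutation test, p = 0.5, the smallest that 2 pairs allow). That cluster is defined by these genes, so its share and the levels of the genes are not independent. Over HM cells alone the median of the list was 0.33, and 3 of the 35 members tested were higher by the adjusted p (against 0.0827% of all genes). Ifi27l2a in HM was at 23.6, 21.9, 33.9 and 39.1 CPM (log2 fold change 0.66, adjusted p = 0.002). Sp100 in HM was at 15.7, 15.9, 22.6 and 23 CPM and Slfn2 at 41.7, 35.5, 56.9 and 51.7 CPM, again without overlap. Within IRM the summed list was at 7935, 9265, 7541 and 8054 CPM, lower with APP/PS1 in both pairs, and in HM at 762, 719.5, 854 and 875 CPM, higher in both. The share of cells with UMIs of at least 2 of the genes Ifit3, Isg15, Rtp4 and Ifitm3, after thinning to 1500 UMIs, was 1.72%, 1.38%, 2.34% and 3.20%. In border macrophages of the same libraries the summed list was at 7501, 6733, 6789 and 8039 CPM, with the APP/PS1 library below WT and the Nlrp3 KO APP/PS1 library above Nlrp3 KO.

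Class I antigen presentation, which interferons induce, showed 3 of 13 genes higher by the adjusted p (against 0.284% of all genes) and none lower, with a list median of 0.19. H2-D1, a classical class I heavy chain, was at 687, 702, 890.4 and 938 CPM (log2 fold change 0.38, adjusted p = 0.0344). H2-Q7 was at 15.9, 13.7, 24.2 and 27.0 CPM (log2 fold change 0.78, adjusted p = 0.000587) and H2-Q4 at 19.9, 20.3, 33.8 and 25.4 CPM (log2 fold change 0.52, adjusted p = 0.0216). After thinning H2-Q7 still passed, while H2-D1 and H2-Q4 did not (adjusted p = 0.0665 and 0.086). The H2-Q genes are close copies of each other, and how reads were split among them is uncertain. B2m, the light chain, was at 1650, 1608, 2042 and 1915 CPM and did not pass (log2 fold change 0.26, adjusted p = 0.39). The class II genes did not behave alike in the pairs. H2-Aa was at 5.91, 8.73, 17.2 and 7.18 CPM, high in the APP/PS1 library alone, and none of the 6 members tested passed.

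The homeostatic genes differed little between the groups. None of its 24 genes passed the adjusted p, 5 were higher and 7 lower in both pairs, and the median was -0.02. Together they made up 102402, 99599, 101069 and 102450 CPM. Tmem119 stood at 1643, 1630, 1531 and 1519 CPM (log2 fold change -0.12, SE 0.0758), Slc2a5, the fructose transporter, at 461, 444, 431 and 414 CPM, and Crybb1 at 500.2, 478, 435 and 429.7 CPM (log2 fold change -0.20, adjusted p = 0.894). Of 10 genes of Trem2 signalling none passed, with Trem2 itself at 3144, 3146, 3060.4 and 3383 CPM. Complement and Fc receptor genes (0 of 16), TGF-beta signalling (0 of 12) and microglial transcription factors (0 of 22) held no gene past the adjusted p, and their medians lay between -0.009 and 0.007. Of 14 cathepsins and cystatins Cst7 was the one that passed (0.284% of all genes were higher by the adjusted p). C1qa, the complement subunit, was at 10797, 10966, 10186 and 10912 CPM.

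Proliferation, immediate early and heat shock genes did not pass either. Of 24 proliferation genes 18 were higher in both pairs (28.9% of all genes were), with a median of 0.29. Mki67, the marker of cycling cells, was at 7.57, 8.66, 8.78 and 16.8 CPM (log2 fold change 0.61, adjusted p = 0.165), high in the Nlrp3 KO APP/PS1 library and close to its control in the other pair. PM, the proliferating microglia, were 1.15%, 1.63%, 2.27% and 2.02% of microglia. Of 25 immediate early genes 12 were higher in both pairs (against the same 28.9%, median 0.13), and the abundant Btg1 was at 304, 304, 322 and 309 CPM. Of 12 heat shock genes 10 were lower in both pairs, where 17.2% of all genes were, with Dnajb1 at 68.8, 56.2, 59.2 and 47.4 CPM (log2 fold change -0.25, adjusted p = 0.307). Of 24 lipid and sterol genes tested, Lpl and Ch25h were higher by the adjusted p (against 0.284% of all genes), and the median was 0.095. None of the 22 tested after thinning passed, and none of the 21 tested over HM alone.

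**Figure D3:**
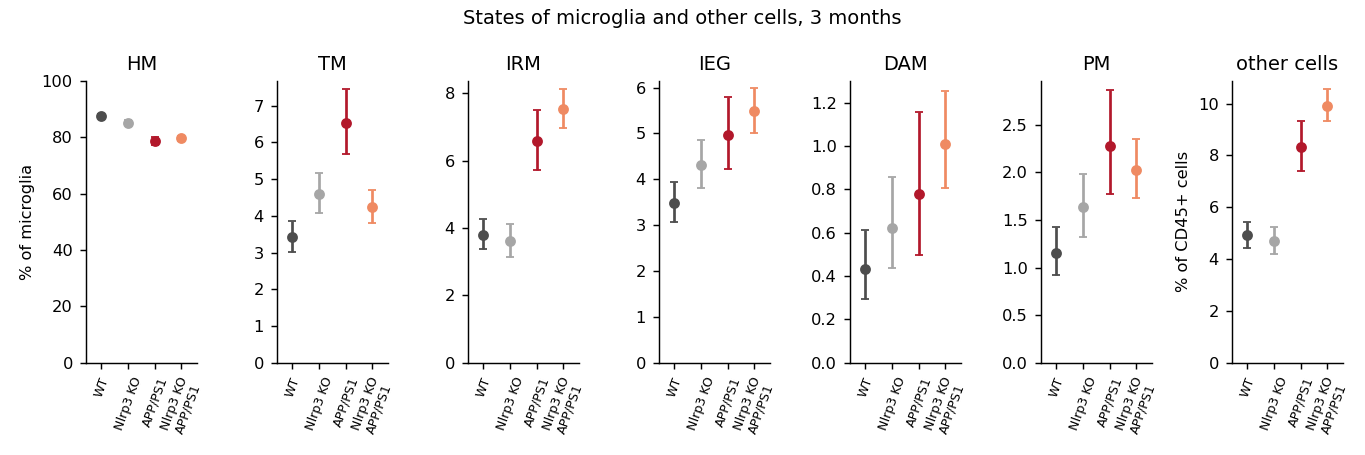
Share of microglia in each of the authors' states, and share of other cells among all CD45+ cells, per 3-month library (percent, points with 95% exact binomial intervals). HM are lower and IRM higher in both APP/PS1 libraries, with IRM at 6.58% and 7.53% against 3.80% and 3.61%.

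Among the other states, HM were 87.7%, 85.2%, 78.9% and 79.7% of microglia, lower by a mean of 7.16 percentage points in APP/PS1 mice (SD 2.34, n = 2 pairs). IEG cells were 3.49%, 4.3%, 4.96% and 5.48%. TM, microglia in transition toward DAM, were 3.42%, 4.61%, 6.52% and 4.24%, higher in one APP/PS1 library and lower in the other. None of these differences in share can pass the sign-flip test, as 2 pairs cannot reach the 0.05 level.

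Of the 11 called genes, 4 are markers of other blood cells. Igkc, the light chain constant region of B and plasma cells, was at 0.866, 2.0, 5.90 and 8.15 CPM in microglia (log2 fold change 2.31, adjusted p = 1.31e-05). S100a9, with S100a8 the main cytosolic protein of neutrophils, was at 0.649, 1.68, 1.99 and 10.1 CPM (log2 fold change 2.26, adjusted p = 8.02e-05). With the Nlrp3 KO APP/PS1 library left out and no pair block, so that APP/PS1 was set against both non-diseased libraries, its estimate was 0.78. Over HM alone its log2 ratio was 1.77 in the Nlrp3 WT pair and 2.62 in the Nlrp3 KO pair. S100a8 was at 0.371, 1.11, 1.57 and 5.18 CPM and Camp, an antimicrobial peptide of neutrophil granules, at 0.0618, 0.286, 0.731 and 2.93 CPM. No microglia held more than 2 UMIs of any of the 4. In HM lay between 73.8% and 92.9% of the Igkc UMIs and between 75.6% and 89.5% of the S100a9 UMIs, and the differences persisted in HM alone (log2 fold changes 2.30 and 2.39).

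The cells that these genes mark also differed between the libraries. B cells numbered 33, 46, 48 and 173, which are 0.436%, 0.737%, 1.43% and 1.90% of CD45+ cells, and neutrophils 1, 5, 3 and 31. Other CD45+ cells together were 4.92%, 4.69%, 8.33% and 9.92% of cells, higher by a mean of 4.32 percentage points in APP/PS1 mice (SD 1.29, n = 2 pairs). Among the marker lists of other cells over all microglia, 3 of 3 neutrophil genes and 1 of 5 B cell genes were higher by the adjusted p (against 0.284% of all genes), with neutrophil sums of 1.18, 3.51, 4.81 and 21.0 CPM. None of the 5 monocyte, 3 T and natural killer cell, 6 border macrophage, 7 neuron or 4 astrocyte genes tested passed. All 5 monocyte genes and all 3 T and natural killer cell genes were nevertheless higher in both pairs (28.9% of all genes were). Their median log2 fold changes were 0.79 and 0.81. So were 4 of the 6 border macrophage genes (median 0.26). By contrast, 6 of the 7 neuron and 3 of the 4 astrocyte genes were lower in both pairs (17.2% of all genes were). Cd79a, a defining B cell gene, was at 0.247, 0.251, 0.418 and 0.484 CPM. The part of other cells or of free RNA in these lists and in the 4 called marker genes was not tested.

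The 3 genes that were lower are not typical microglial genes. Gm42418 (chr17:39846958-39848788) was at 7887, 6728, 5792 and 3892 CPM (log2 fold change -0.64, adjusted p = 0.00118). AY036118 overlaps it on the other strand (chr17:39847113-39848035) and was at 688, 608, 585 and 301 CPM (log2 fold change -0.64), and reads of the pair may not be told apart. The third, 3830403N18Rik on the X chromosome, was at 15.7, 9.59, 9.77 and 5.98 CPM. Of the 13 mitochondrially encoded genes none passed, 8 were lower in both pairs (17.2% of all genes were), and the median was -0.29, with the median mitochondrial share of a cell at 3.03%, 3.16%, 2.65% and 2.35%. Its part in the other results was not tested.

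**Figure D4:**
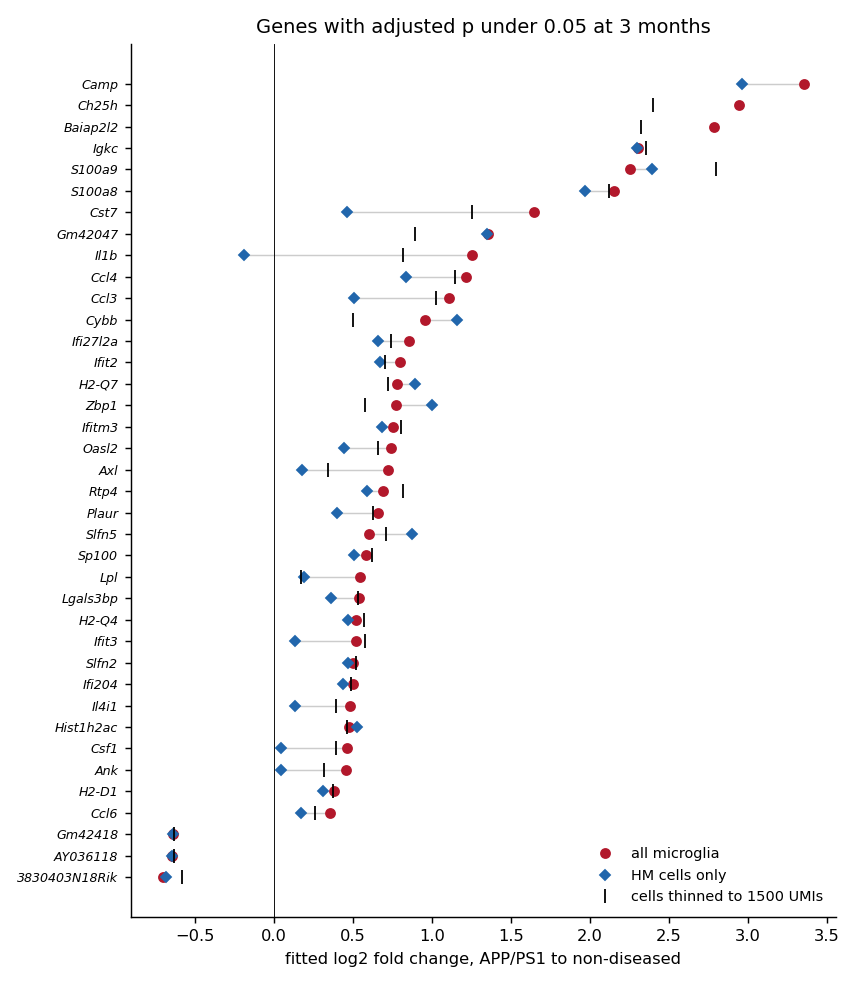
Fitted log2 fold change (APP/PS1 over non-diseased, 3 months) of the 38 genes past the adjusted p, when all microglia (circles), HM alone (diamonds) or cells thinned to 1500 UMIs (ticks) were summed. Cst7 moves from 1.65 to 0.46 and Il1b from 1.25 to -0.19 in HM, whereas Ifi27l2a stays at 0.66 and Sp100 at 0.51. HM was clustered by expression, so values in HM are not independent of that annotation.

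Each pool held mice of both sexes, so microglia with UMIs of Y-linked genes and microglia with UMIs of Xist were summed apart. The former were 43.9%, 45.3%, 49.4% and 37.3% of microglia and the latter 26.7%, 29.1%, 30.0% and 34.8%. Neither kind of UMI was found in 1963, 1414, 583 and 2058 microglia. Over all microglia Xist was at 666, 729, 735 and 842 CPM and the Y-linked genes summed to 175, 183, 170 and 157 CPM. The part of this in the other results was not tested. Ccl4 stood at 39.1, 60.5, 129 and 199 CPM in cells with Y-linked UMIs and at 151, 80.5, 67.8 and 168 CPM in cells with Xist UMIs. Its groups were thus apart in the first kind of cells (log2 fold change 1.70) and overlapped in the second (log2 fold change 0.004). Cst7 was at 16.9, 14.6, 33.6 and 117 CPM against 17.8, 18.2, 22.3 and 49.8 CPM. A test of the difference of the APP/PS1 effect between both kinds of cells called 1 of 11787 genes (0.00848%), the chemokine Cxcl9, which had 4 to 189 UMIs per sum. The difference was 1.24 for Cst7 (SE 0.19, adjusted p = 0.060), 1.23 for Ccl3 (SE 0.19, adjusted p = 0.060) and 1.70 for Ccl4 (SE 0.34, adjusted p = 0.293), each larger in cells with Y-linked UMIs. Ifi27l2a differed by -0.11 (SE 0.19, adjusted p = 1.0). Of the interferon list, 17 of 39 members were higher and 1 lower by the adjusted p in cells with Y-linked UMIs. Over all 11691 genes tested there, 62 were higher and 26 lower. In cells with Xist UMIs 3 of 36 members were higher and 1 lower, against 7 and 3 of 11308 genes. Since a pool holds 1 female mouse, a sex and a single mouse cannot be told apart here. Leaving out 1 library at a time gave 0 to 14 calls of this difference, 14 without WT, 4 without Nlrp3 KO, 5 without APP/PS1 and 0 without Nlrp3 KO APP/PS1.

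The same pairs of genotypes at 9 months were used to ask whether the early effect differed from the later one. Of the 38 genes past the adjusted p at 3 months, 36 were also tested at 9 months, and 33 of them had the same sign there (57.3% of the 11784 genes tested at both ages did). Cst7 had a log2 fold change of 3.69 at 9 months, from 40.0 and 29.4 CPM in the non-diseased to 325 and 571 CPM in the APP/PS1 libraries, and Lpl one of 1.83. For Ccl4 it was 1.47, for Il1b 1.10 and for Ifi27l2a 1.5. S100a9 and Igkc were at -0.93 and 0.53. The median of the DAM list was 0.82 at 9 months against 0.21 at 3 months, and that of the interferon list 0.64 against 0.50. When the difference of the effect between the ages was tested, no gene of 12282 was called (edgeR, 601 at an unadjusted p under 0.05), while DESeq2 called 6.

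The 10 genes with the lowest p for that difference all had the larger log2 fold change at 9 months. Ank differed by 1.57 (SE 0.157, edgeR adjusted p = 0.231), and Ccl6 by 0.997 (SE 0.0932, adjusted p = 0.231). Igf1, the growth factor, reached 0.897, 1.25, 1.88 and 2.22 CPM in the 3-month libraries, whereas those of 9 months had 1.23, 0.852, 14.4 and 16.4 CPM, a difference of 3.04 (SE 0.37, adjusted p = 0.294). Hcar2, a receptor for hydroxybutyrate, Tnfsf8, Acaca, Psat1, Pf4, Gm1673 and Chst2 made up the other genes of lowest p, with differences between 1.12 and 3.85 on the log2 scale. For Cst7 the difference was 2.09 (SE 0.58, adjusted p = 0.88) and for Ccl4 0.26 (SE 0.26, adjusted p = 0.908). The ages were of different batches, so the age of an effect and its batch cannot be told apart, although each pair lies within a batch.

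**Figure D5:**
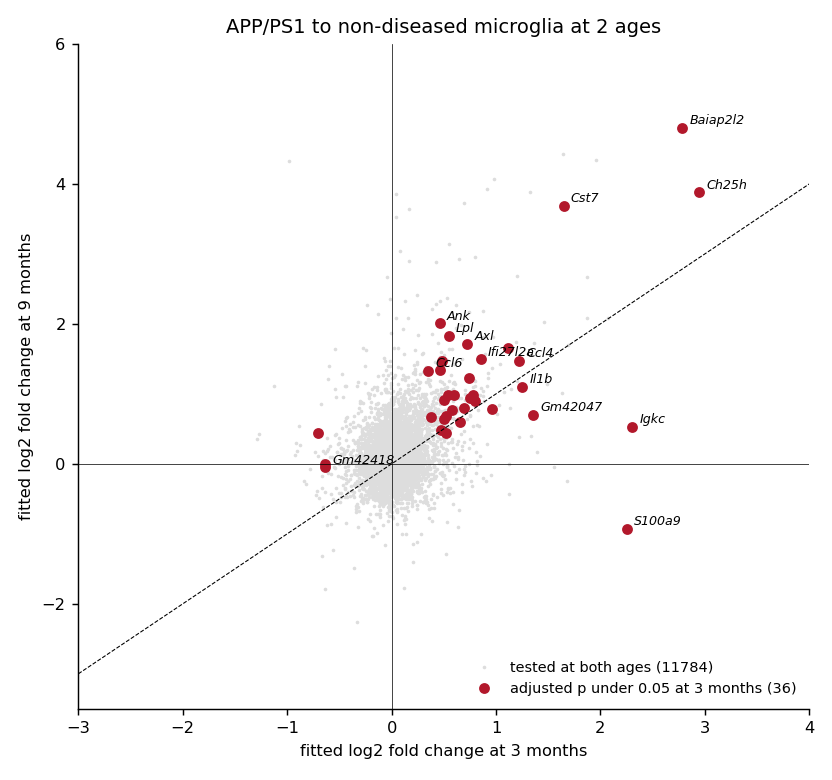
Log2 fold change (APP/PS1 over non-diseased) at 9 months against that at 3 months, 1 gray point per gene tested at both ages, with the genes past the adjusted p at 3 months in red and a dashed line where both ages are equal. Of the 36 marked genes 33 have the same sign at both ages (57.3% of all genes tested at both ages do).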

How the data were processed

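CD45+ brain cells of 10 libraries were profiled in droplets (10x Genomics, 3' RNA counting). Per the labels the authors used Cell Ranger and the mouse genome build mm10, and per the methods they removed outlier cells and clustered the rest. The authors deposited UMI counts per gene and cell without normalization, and an annotation with the percent of mitochondrial UMIs, the fraction of ribosomal UMIs and a doublet score per cell, of which the ribosomal fraction was not used further here. Under 2 sample names of the table, which match no sample description, 6897 cells were left out. Embedding coordinates were not used.

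The members and gene lists were chosen with earlier results of these data known. Counts were summed per library over the annotated microglia, passed through filterByExpr and TMM scaling, and tested in edgeR 4.0.16 (R 4.3.3) with the Nlrp3 genotype as block. Named genes are the 20 of lowest p with 1 sign in both pairs and at least 50 UMIs, all called genes, Nlrp3, Lgi2, Baiap2l2, Ch25h, Ccl4 and Gpnmb, up to 4 members of each list (lowest p and most abundant) and the 10 of lowest p for the difference between ages. Others were chosen after their values were seen, among them Cybb, Axl, Slfn5, Ifit3, Csf1, AY036118, 3830403N18Rik, Casp1, Gsdmd, Gbp2, H2-Ab1 in DAM, Cxcl13 and Cxcl9. CPM are relative to all UMIs of the cells summed. Alternatives were DESeq2 1.42.0, its size factors, limma-trend (limma 3.58.1), no filter, no block, shared spread over more libraries, thinning to 1500 UMIs, HM only, a doublet score up to 0.5 (7.88% of the 3-month microglia were above), subsets with Y-linked or Xist UMIs and leaving out each library. The tests between cells with Y-linked and Xist UMIs, the shares of states in these cells, the alternatives for states and lists other than DAM, the content of DAM and the share of cells by interferon genes were added after seeing the data. Fits of the 3-month effect with a library left out had no block. Scripts were tested on simulated data. Between 19140253 and 35107144 UMIs per library limit the precision. At the shallowest, 3 UMIs are 0.157 CPM.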

Additional observations from a re-analysis of the deposited data

Results flagged for a closer look

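The share of TM cells differed by 3.10 percentage points in the Nlrp3 WT pair and by -0.367 in the Nlrp3 KO pair, so the pairs moved in opposite directions, and the difference between them was not tested. Likewise, the median number of UMIs per microglia differed by 1725 in the Nlrp3 WT pair and by -521 in the Nlrp3 KO pair. H2-Aa, a class II chain, had a log2 ratio of 1.54 in the Nlrp3 WT pair and -0.28 in the Nlrp3 KO pair, and Egr1, an immediate early transcription factor, one of 1.23 and -0.26. Neither difference was tested.

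In border macrophages, which no comparison of the microglia used, the summed interferon genes had a log2 ratio of 0.256 in the Nlrp3 KO pair, whereas the APP/PS1 library lay below WT in the other pair. The APP/PS1 effect on Cxcl9 differed by -5.22 (log2) between cells with Y-linked UMIs and cells with Xist UMIs (edgeR adjusted p = 0.0281). In cells with Y-linked UMIs its levels were 0.685 CPM in WT, 14.8 in Nlrp3 KO, 0.416 in APP/PS1 and 2.57 in the Nlrp3 KO APP/PS1 library, and in cells with Xist UMIs 0.466, 0.986, 3.77 and 7.92 CPM in the same order. With 1 library per group, groups were too small to look for single outlying libraries.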

How the results depend on the processing

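The 11 calls at 3 months became 17 without the filter on low counts, 4 with DESeq2, 1 without the pair as a block, 0 with the spread of 10 or of 8 libraries, 6 after thinning, 5 over HM alone, 24 over cells with Y-linked UMIs, 6 over cells with Xist UMIs, 0 with limma-trend (279 at an unadjusted p under 0.05) and 38 by the adjusted p alone. Lower in APP/PS1 mice were 3 of the 17 calls without the filter, 2 of the 24 over cells with Y-linked UMIs and 2 of the 6 over cells with Xist UMIs. The 5 over HM alone were Igkc, S100a8, S100a9, Camp and Ccl5. Of the 11, those still called over cells with Xist UMIs were Igkc, S100a8 and S100a9. In the fit over cells with Y-linked UMIs the spread followed the trend alone, without a value for each gene, unlike in the main fit and that over cells with Xist UMIs. Leaving out 1 library gave 1 call without WT, 2 without Nlrp3 KO, 23 without APP/PS1 and 4 without Nlrp3 KO APP/PS1, where the lone library is assumed to vary like the others. Single pairs had 123 (Nlrp3 KO) and 157 (Nlrp3 WT) genes past a log2 ratio of 1, without a test. No paired analysis by replicate number was possible because every group is 1 library, and the block is the Nlrp3 genotype. Between the ages, 0 calls became 6 with DESeq2, 1 after thinning and 0 to 209 without 1 pair (57 without the Nlrp3 WT pair of 9 months, 209 without the Nlrp3 KO pair of 9 months). Between cells with Y-linked and Xist UMIs, 1 call became 2 by the adjusted p alone and 0 to 14 without 1 library. The DAM share difference of 0.368 percentage points became 0.489 with the annotation of all CD45+ cells, 0.272 without doublets, 0.549 by 5 genes, 0.467 among HM, TM and DAM, 0.517 and 0.406 in cells with Y-linked and Xist UMIs. The TM difference was -0.367 in the Nlrp3 KO pair. The DAM list median of 0.211 became 0.0218 in HM, 0.0729 in cells with Xist UMIs and 0.0154 with limma-trend, and Il1b fell to -0.19 in HM. The subsets and the fits with a library left out hold fewer cells or libraries, and HM is a state clustered by expression. The cause of these changes was not tested in any of the settings.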
